A study of Mus musculus with 3 samples.

Results

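The Wnt ligands, their Frizzled receptors and the secreted antagonists of the Sfrp and Dkk families were followed through ventricle development in the mouse. Members were chosen by gene name alone, as every locus of the deposited transcript annotation named after a Wnt gene, a Fzd gene, or a numbered Sfrp or Dkk gene. The names matched 40 of 48626 loci, and 37 of these carried the named gene on its own strand: 19 Wnt, 10 Fzd, 4 Sfrp and 4 Dkk genes. The other 3 loci carried transcripts running opposite to Wnt2b or Wnt16 and are described apart.

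Wnt proteins are secreted, lipid-modified ligands that bind Frizzled receptors on nearby cells. Binding either stabilises beta-catenin, which then acts with Tcf and Lef factors in the nucleus, or acts through planar polarity and calcium routes that do not need beta-catenin. Sfrp proteins carry a Frizzled-like domain and bind the ligands outside the cell, while Dkk1, Dkk2 and Dkk4 block the Lrp co-receptors and Dkk3 is a divergent member whose role in the pathway is less clear. In the heart, Wnt signalling is known for stage-dependent effects on cardiac progenitors, for roles of Wnt5a and Wnt11 in the outflow tract, and for activity in cushions, epicardium and the injured adult ventricle.

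The study sequenced total RNA from the heart ventricle of C57BL/6 mice (C57BL/6 J in the methods) in a survey of long non-coding RNAs, with stranded paired-end libraries. There was 1 library for each stage, namely embryos at E10.5 and at E13.5, where the figure after the E is the day of gestation, and Adult mice of 8 weeks, and no genotype change or treatment was named. How many animals entered each library, and of which sex, is not given in the sources used here. With no replicates, no test of any difference between stages was possible, and a difference between stages cannot be told apart from one between these libraries.

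Levels were given as FPKM, fragments scaled by transcript length and by library size, so that genes can be set beside each other within a library. Low values moved in steps which put 1 FPKM at about 13.8 fragments per kilobase of transcript in the E10.5 and Adult libraries and about 26.7 in the E13.5 library. Those steps are an approximation to depth. The study describes about equal read numbers for its libraries, which the steps do not show, and the reason for the gap was not tested. Ventricular cardiomyocyte markers had median levels of 533, 1137 and 2215 FPKM in order of stage, with all 9 above 1 FPKM in every library. Atrial markers, some of which the embryonic ventricle also uses, had medians of 1954, 2160 and 1.16 FPKM. All 4 lung epithelium markers stayed under 1 FPKM in every library. Liver markers had medians of 0.605, 2.22 and 0.0243 FPKM, and 4 of 5 reached 1 FPKM at E13.5.

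Promoters of 4 members are shown because Sfrp2, Dkk2 and Fzd1 were 3 of the 5 members that stood out as higher at E13.5, and Fzd4 is a contrasting receptor that was lowest at that stage. They are RefSeq windows of mouse build GRCm38.p6 from 250 bases before to 50 bases after the annotated start, written 5′ to 3′ on the gene's strand: Sfrp2 at chr3:83766071-83766370 (+), Dkk2 at chr3:132085042-132085341 (+), Fzd1 at chr5:4758167-4758466 (-) and Fzd4 at chr7:89404116-89404415 (+). Capitals mark matches to TATAAA, or to CTTTGA and CTTTGT, the letters at the core of sites that Tcf and Lef factors are known to bind, each searched on both strands.
Sfrp2: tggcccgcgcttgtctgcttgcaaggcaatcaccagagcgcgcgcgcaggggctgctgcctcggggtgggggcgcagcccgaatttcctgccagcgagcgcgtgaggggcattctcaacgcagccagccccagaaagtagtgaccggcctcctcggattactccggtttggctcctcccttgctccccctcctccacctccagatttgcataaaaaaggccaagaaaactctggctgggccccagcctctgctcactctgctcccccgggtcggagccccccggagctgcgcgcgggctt
Dkk2: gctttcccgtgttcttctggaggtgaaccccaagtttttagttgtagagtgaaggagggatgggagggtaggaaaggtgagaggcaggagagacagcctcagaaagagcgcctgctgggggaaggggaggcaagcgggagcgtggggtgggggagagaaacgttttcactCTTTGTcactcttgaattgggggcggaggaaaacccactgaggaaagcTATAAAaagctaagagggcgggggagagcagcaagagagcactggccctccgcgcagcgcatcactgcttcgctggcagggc
Fzd1: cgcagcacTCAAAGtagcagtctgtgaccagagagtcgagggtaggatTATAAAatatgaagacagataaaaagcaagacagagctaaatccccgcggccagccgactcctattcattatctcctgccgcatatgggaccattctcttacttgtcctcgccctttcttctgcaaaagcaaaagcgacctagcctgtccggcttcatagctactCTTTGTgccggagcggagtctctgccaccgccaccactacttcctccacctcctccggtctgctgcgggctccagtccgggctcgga
Fzd4: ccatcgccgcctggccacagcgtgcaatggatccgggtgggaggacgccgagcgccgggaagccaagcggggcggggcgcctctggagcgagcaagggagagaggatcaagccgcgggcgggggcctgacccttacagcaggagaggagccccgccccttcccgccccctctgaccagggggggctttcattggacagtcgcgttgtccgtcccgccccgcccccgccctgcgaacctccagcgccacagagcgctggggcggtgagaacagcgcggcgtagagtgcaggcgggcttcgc

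The Dkk2 window held TATAAA 32 bases before the start and CTTTGT 80 bases before it. The Fzd1 window held TATAAA 202 bases, CTTTGT 37 bases and CTTTGA on the opposite strand 242 bases before the start. That RefSeq start is at 4758216, whereas the longer transcript assembled for Fzd1 starts upstream of it, at 4758415. The CTTTGT match thus lies inside the longer transcript. The Sfrp2 and Fzd4 windows held none of these letters, which says no more than that they are not in these bases. GC content was 66.0% for Sfrp2, 57.7% for Dkk2, 54.0% for Fzd1 and 72.7% for Fzd4, against a median of 52.7% over 32851 RefSeq promoters. Of those promoters 13.6% held TATAAA, 16.0% CTTTGA and 18.7% CTTTGT, so that none of the 3 motifs is rare in a window of this length. In the short stretch before the start that holds the Dkk2 match, TATAAA on the gene's strand was rarer, in 2.25% of promoters. The search over members left out those on chromosome 18 (Wnt8a and Fzd8). Among the 25 members searched, TATAAA was found in 4 (Wnt11, Fzd1, Dkk1 and Dkk2), CTTTGA in 4 and CTTTGT in 6. These members had 28 windows and counted if any window matched, whereas the shares above are per promoter. The Wnt11 matches lay in a window at a RefSeq start of 98835112, and the window at its assembled start, 98838845, held none. The Wnt5b match to CTTTGA also lay at a RefSeq start other than the assembled one. A match is a description of the sequence and not of a bound site.

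Most ligand genes were hardly detected in the ventricle while nearly all receptor genes were. Of the 37 members 18, 23 and 10 reached 1 FPKM in the E10.5, E13.5 and Adult libraries, against 56.2%, 57.7% and 55.5% of 20117 mRNA loci. Of the Wnt genes 6, 8 and 2 of 19 reached this level, of the Fzd genes 9, 10 and 6 of 10, of the Sfrp genes 2, 3 and 2 of 4, and of the Dkk genes 1, 2 and 0 of 4. In all, 24 members reached 1 FPKM in at least 1 library and 8 did so in each of them. The other 13 members stayed below the limit throughout, and Dkk1 had the highest value among them, 0.431 FPKM at E13.5. A member that passed only through the library where it was high had to differ between stages, so the counts below describe the 24 members that passed and not all 37.

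**Figure D1:**
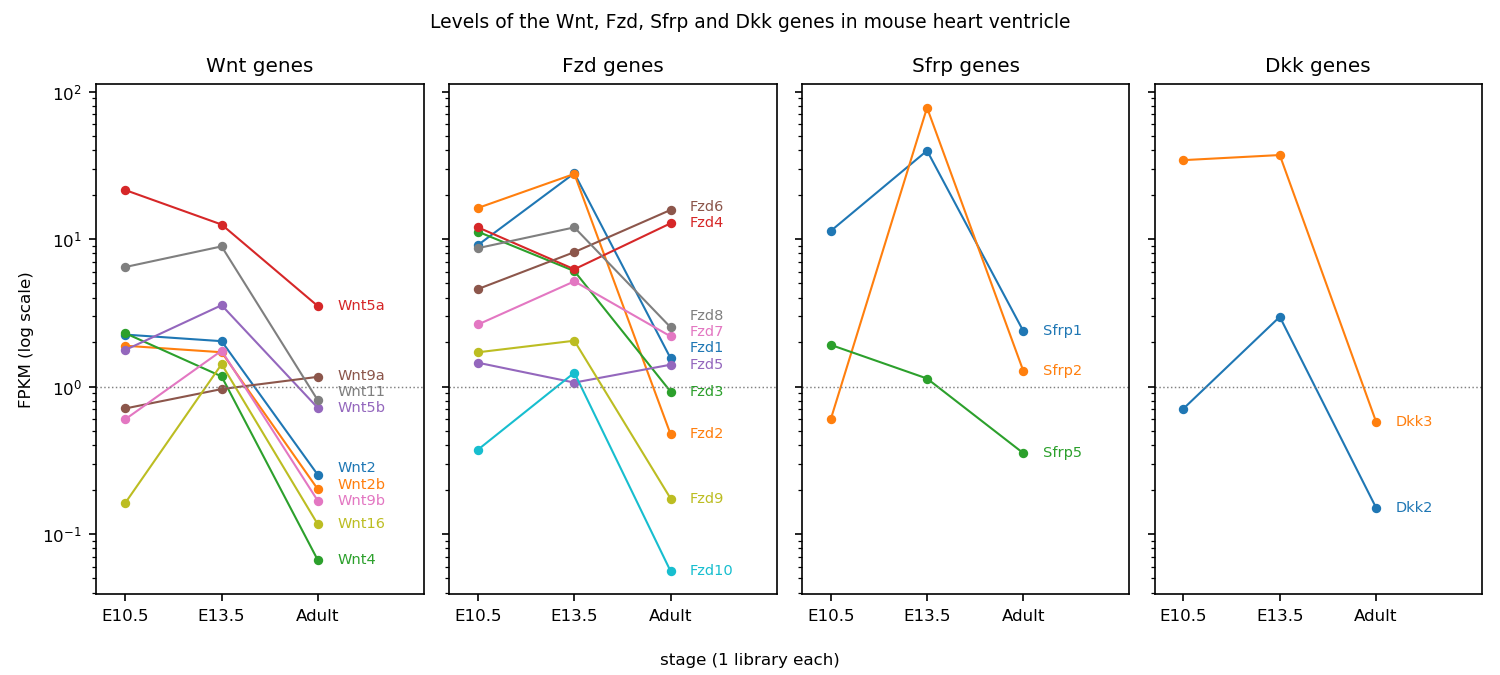
Level of each of the 24 members that reached 1 FPKM in at least 1 library, in FPKM on a log axis, for the E10.5, E13.5 and Adult libraries (1 library each, so no error bars), with a panel for each family and a dotted line at 1 FPKM. Sfrp2 climbs from 0.600 to 77.8 FPKM between the embryonic libraries and lies at 1.28 FPKM in the Adult, whereas Fzd4 and Fzd6 hold the highest Adult levels, 12.8 and 15.8 FPKM.

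Among the ligands, Wnt5a led at every stage. Wnt5a (chromosome 14, 28504904 to 28527479, + strand), a ligand best known for signalling without beta-catenin, was at 21.5, 12.6 and 3.51 FPKM, again in order of stage. It was lower at each later stage, with a difference of -2.32 on the log2(FPKM + 1) scale from first to last. Wnt11, which acts in outflow tract development, was at 6.47, 8.92 and 0.805 FPKM. Its level was highest at E13.5, and the Adult library differed from that by -2.46 on the same log2 scale. All differences given from here on are on that scale, which understates the change of low genes.

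Wnt2 and Wnt2b, closely related ligands of the beta-catenin branch, followed each other closely. Wnt2 was at 2.25, 2.03 and 0.252 FPKM. Wnt2b was at 1.89, 1.71 and 0.201 FPKM. Both were nearly level between the embryonic libraries, with differences of -0.10 and -0.09, and were low in the Adult, with differences of -1.28 and -1.17 from E13.5. Wnt4, a ligand known from kidney and gonad development, was at 2.30, 1.17 and 0.0664 FPKM and so was lower at each later stage.

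A further group of ligands was highest at E13.5. Wnt5b was at 1.77, 3.56 and 0.716 FPKM. Wnt9b, a ligand that endocardium makes in the developing valves, was at 0.600, 1.75 and 0.168 FPKM. Wnt16 was at 0.163, 1.42 and 0.116 FPKM, and passed the limit in the E13.5 library alone, on about 139 fragments. Of the Wnt genes that passed, Wnt16 had the largest difference from E10.5 to E13.5, 1.06, which was 0.93 with median-of-ratios scaling, 0.92 with mRNA-sum scaling and 0.31 with a pseudocount of 5.

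Wnt9a was the exception among the ligands. It was at 0.711, 0.962 and 1.16 FPKM, so that its highest value was in the Adult library, with a difference of 0.34 from E10.5. In the Adult library it stood next after Wnt5a in the Wnt family, above Wnt11. The remaining 10 Wnt genes (Wnt1, Wnt3, Wnt3a, Wnt6, Wnt7a, Wnt7b, Wnt8a, Wnt8b, Wnt10a and Wnt10b) were never above 0.206 FPKM, the value of Wnt6 in the Adult. By the step sizes that value is about 5.87 fragments, and Wnt7a at E13.5, with 0.141 FPKM, had about 11.9. Wnt1 and Wnt10a were listed at 0 in all 3 libraries, and an exact 0 can also be a failed estimate.

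The Frizzled receptors changed places between the embryo and the Adult. Fzd1 (chromosome 5, 4752072 to 4758415, - strand) was at 9.12, 28.0 and 1.55 FPKM. Fzd2 was at 16.3, 27.7 and 0.474 FPKM. These closely related receptors were the leading Frizzled genes at E13.5 and were outside the leading 4 in the Adult, with differences of -3.50 and -4.28 between those libraries. Fzd1 was the single Frizzled gene with a difference of 1 or more from E10.5 to E13.5, at 1.52.

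Fzd4 and Fzd6 took the lead in the Adult library. Fzd6 (chromosome 15, 39006280 to 39038190, + strand), which is known from planar polarity, was at 4.59, 8.16 and 15.8 FPKM. It was higher at each later stage and was the single member to gain at least 1 between the first and last libraries, with a difference of 1.59. Fzd4, a receptor of endothelial cells that also binds Norrin, was at 12.01, 6.24 and 12.8 FPKM. Its level was lowest at E13.5 and differed by 0.09 between E10.5 and Adult.

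The other 6 Frizzled genes were highest in an embryonic library. Fzd3, a planar polarity receptor, was at 11.2, 6.07 and 0.924 FPKM, with a difference of -2.67 between first and last. Fzd8 was at 8.68, 12.01 and 2.52 FPKM. Fzd7 was at 2.64, 5.17 and 2.19 FPKM, with near equal values at E10.5 and in the Adult. Fzd9, at 1.71, 2.05 and 0.174 FPKM, and Fzd10, at 0.374, 1.24 and 0.0560 FPKM, were nearly undetected in the Adult. Fzd5 varied least of the family, with 1.45, 1.06 and 1.41 FPKM.

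The widest swing of any member was that of Sfrp2 (chromosome 3, 83766321 to 83774314, + strand; its start opens the last 50 bases of the first promoter printed above). Sfrp2 was at 0.600, 77.8 and 1.28 FPKM, which corresponds to about 16.6, 4152 and 35.2 fragments by the step sizes. It was high at E13.5 alone, with a difference of 5.62 from E10.5 and -5.11 from E13.5 to Adult. In FPKM the E13.5 value was 129.8-fold that at E10.5. Among the 12569 mRNA loci that reached 1 FPKM in some library, this difference ranked 2 in the upward direction from E10.5 to E13.5, and the later difference ranked 78 in the downward direction.

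Sfrp1 shared the direction of Sfrp2 at a higher starting level. It was at 11.4, 39.8 and 2.38 FPKM, with differences of 1.72 and -3.59 between successive stages. It was the leading Sfrp gene at E10.5 and again in the Adult. Sfrp5, by contrast, was highest at E10.5, with 1.92, 1.13 and 0.354 FPKM. Sfrp4 was listed at 0 at E10.5 and was at 0.127 and 0.0428 FPKM thereafter.

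Dkk3 (chromosome 7, 112116019 to 112159091, - strand) was the highest of all 37 members at E10.5. It was at 34.3, 37.1 and 0.578 FPKM. The embryonic libraries differed by 0.11, and the Adult library was 64.2-fold lower than E13.5 in FPKM, a difference of -4.60. Dkk2, an Lrp antagonist, was at 0.709, 2.97 and 0.151 FPKM and so was high at E13.5 alone, with differences of 1.22 and -1.79. Dkk1 was at 0.412, 0.431 and 0.0749 FPKM, and Dkk4 was listed at 0 in each embryonic library but at 0.0315 FPKM in the Adult.

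Summed by family, the ligands, receptors and antagonists moved by different amounts. The Wnt genes summed to 38.1, 34.6 and 7.49 FPKM and the Fzd genes to 68.1, 97.6 and 37.9 FPKM. The Sfrp genes summed to 13.9, 119 and 4.05 FPKM and the Dkk genes to 35.4, 40.6 and 0.836 FPKM. For each FPKM of ligand there were 1.29, 4.61 and 0.652 FPKM of Sfrp and Dkk antagonists, and 1.79, 2.82 and 5.05 FPKM of receptor. The antagonist ratio was thus highest at E13.5 and the receptor ratio highest in the Adult. Dkk3, whose place among the antagonists is less clear, supplied much of the first sum, and without it the antagonist ratios were 0.393, 3.54 and 0.575, still highest at E13.5 but with E10.5 below the Adult. These are ratios of RNA levels within a library, which another scaling of the libraries does not alter, and they say nothing of protein.

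The Dkk sum rested largely on 1 gene, and the Fzd sum was more evenly spread in the embryo than in the Adult. Wnt5a made up 56.4%, 36.3% and 46.8% of the Wnt sum, and Dkk3 96.8%, 91.6% and 69.2% of the Dkk sum. Fzd2 and Fzd4, the highest Fzd genes at E10.5, together held 41.5% of the sum there. The Fzd lead passed from Fzd2 with 23.9% at E10.5 to Fzd1 with 28.6% at E13.5, next to Fzd2 with 28.3%, and then to Fzd6 with 41.6% in the Adult. Fzd6 and Fzd4 together held 75.4% of the Adult Fzd sum. The Sfrp lead passed from Sfrp1 with 81.8% to Sfrp2 with 65.5% and back to Sfrp1 with 58.7%.

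**Figure D2:**
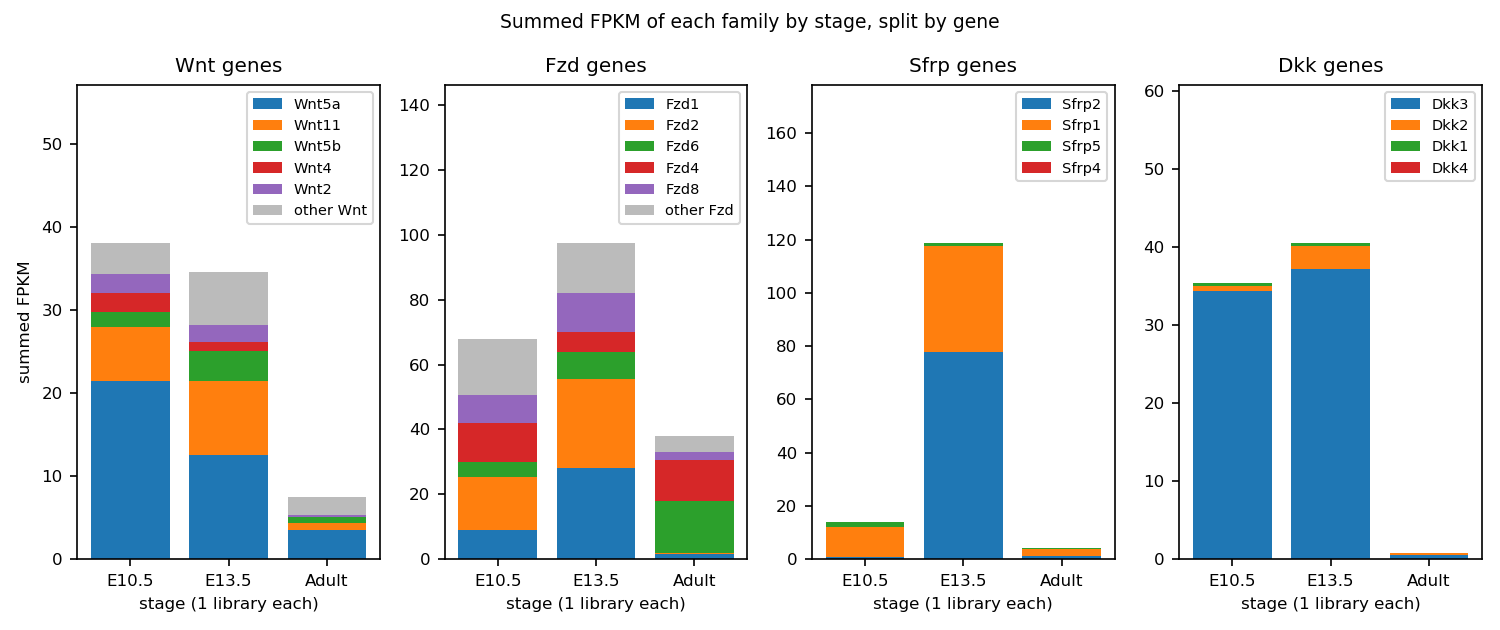
Summed FPKM of the Wnt, Fzd, Sfrp and Dkk genes in the E10.5, E13.5 and Adult libraries (1 library each), stacked by gene, with a separate FPKM axis from 0 for each family. The Sfrp bar stands at 119 FPKM at E13.5 against 13.9 and 4.05 at the other stages, and Fzd6 and Fzd4 fill most of the Adult Fzd bar.

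From E10.5 to E13.5, 5 of the 24 members were higher by 1 or more (Wnt16, Fzd1, Sfrp1, Sfrp2 and Dkk2) and 0 were lower, beside backgrounds of 5.89% higher and 4.85% lower among the 12569 mRNA loci (10.7% in either direction). The median difference was 0.42 over the members and 0.17 over those loci. With libraries scaled on the mRNA sum without globin and mitochondrial loci, the split was 4 higher and 3 lower, beside backgrounds of 3.36% and 8.64%, the lower members being Wnt5a at -1.02, Fzd3 at -1.06 and Fzd4 at -1.12. Wnt16 was the member no longer higher by 1 under either scaling.

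From E13.5 to Adult, 18 of the 24 members were lower by 1 or more and 0 were higher, beside backgrounds of 32.1% lower and 13.0% higher (45.1% in either direction). They were 8 Wnt genes (all that passed but Wnt9a), 6 Fzd genes (Fzd1, Fzd2, Fzd3, Fzd8, Fzd9 and Fzd10), Sfrp1, Sfrp2, Dkk2 and Dkk3. Each of the 5 members that were higher at E13.5 than at E10.5 was among them. The median difference was -1.33 over the members and -0.50 over the mRNA loci. Relative to that median, Dkk3 stood at -4.09 and Fzd6 at 1.38. With median-of-ratios scaling, under which the median of the mRNA loci was -0.01, 14 members were lower and 2 higher, beside backgrounds of 18.9% and 20.9%, and with mRNA-sum scaling 15 were lower and 2 higher, beside 23.6% and 17.2%. Wnt4, Wnt16 and Fzd10 were no longer lower by 1 under either scaling, nor was Wnt2b under median-of-ratios scaling, at -0.96. The 2 higher members were Fzd4, at 1.44 and 1.22, and Fzd6, at 1.40 and 1.17.

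From E10.5 to Adult, 13 of the 24 members were lower by 1 or more and 1, Fzd6, was higher, beside backgrounds of 27.3% and 14.8% (42.1% in either direction). The lower members were Wnt2, Wnt2b, Wnt4, Wnt5a, Wnt11, Fzd1, Fzd2, Fzd3, Fzd8, Fzd9, Sfrp1, Sfrp5 and Dkk3. The median difference was -1.16 over the members and -0.40 over the mRNA loci. Dkk3 had the lowest difference, -4.48, which ranked 104 from the bottom among the mRNA loci. These 3 comparisons share libraries, so that their counts are not independent of each other.

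**Figure D3:**
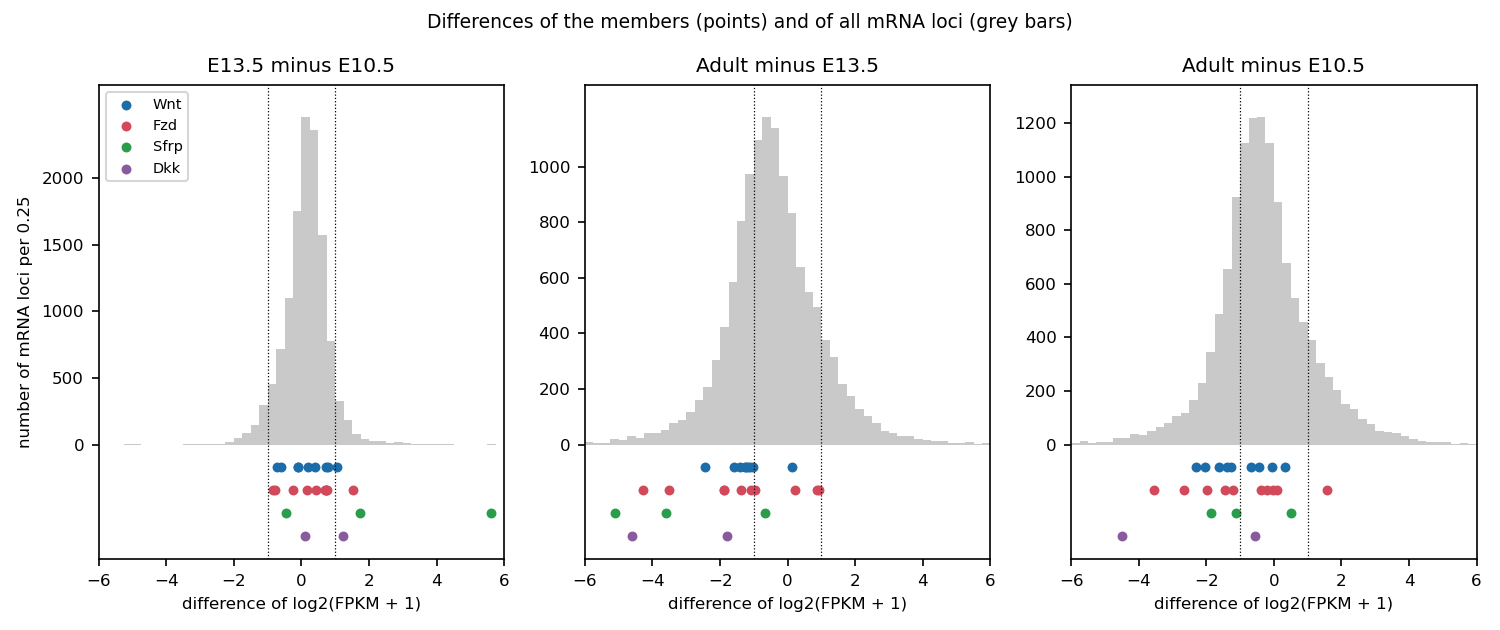
Differences in log2(FPKM + 1) between stages for the 24 members that passed 1 FPKM, drawn as points by family under a histogram of the 12569 mRNA loci in grey (bars of 0.25, loci beyond 6 or -6 not drawn), with dotted lines at 1 and -1. From E13.5 to Adult 18 members lie at -1 or below, and from E10.5 to E13.5 Sfrp2 at 5.62 lies far to the right of the other members.

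By stage of highest level, 7 of the 24 members peaked in the E10.5 library, 14 in the E13.5 library and 3 in the Adult library, whereas 26.8%, 46.7% and 26.5% of the mRNA loci did so. The 3 with an Adult peak were Wnt9a, Fzd4 and Fzd6. Those at E10.5 were Wnt2, Wnt2b, Wnt4, Wnt5a, Fzd3, Fzd5 and Sfrp5. These counts became 7, 13 and 4 with median-of-ratios scaling, where Dkk3 moved to E10.5 and Fzd5 to the Adult, beside 27.5%, 32.3% and 40.2% of the mRNA loci. They became 9, 12 and 3 with mRNA-sum scaling, where Dkk3 and Fzd9 moved to E10.5, beside 40.5%, 28.9% and 30.6%.

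Markers of other cell types moved over the same stages. Their counts read against the shares of all mRNA loci that were higher or lower by 1 or more. Those shares were 5.89% higher and 4.85% lower from E10.5 to E13.5, and 13.0% and 32.1% from E13.5 to Adult. From E10.5 to Adult they were 14.8% and 27.3%. Each marker list is short, so its counts carry little precision. The 8 epicardial markers had medians of 18.2, 22.9 and 1.81 FPKM, and 7 of them were lower in the Adult than at E13.5 by 1 or more. The 8 fibroblast and mesenchyme markers had medians of 28.1, 88.1 and 28.1 FPKM, so that they too were highest at E13.5, with 4 higher from E10.5 and 5 lower thereafter. Their summed levels were 853, 1662 and 642 FPKM, with single markers between 6.31 and 965 FPKM. The 5 cushion and valve markers had medians of 2.75, 3.92 and 0.394 FPKM. The outflow tract and second field markers had medians of 1.11, 1.98 and 0.0744 FPKM. Of the 3 that passed, 1 was higher and 1 lower from E10.5 to E13.5. Hand2, the highest, was at 29.9, 42.1 and 9.12 FPKM, Isl1 at 0.291, 3.76 and 0.0441 FPKM, and Fgf10 at 1.93, 0.208 and 0.105 FPKM. Liver markers too were highest at E13.5, with 2 of the 4 that passed higher from E10.5 and 4 lower thereafter, among them Alb at 0.119 and 2.204 FPKM in the embryonic libraries and listed at 0 in the Adult. Erythroid markers had medians of 1057, 366 and 1.87 FPKM but summed levels of 6758, 16348.5 and 24.5 FPKM. Between the embryonic libraries 1 of these 5 was higher (Hbb-y) and 1 lower (Hbb-bh1) by 1 or more. Smooth muscle and pericyte markers had medians of 13.6, 29.9 and 29.9 FPKM but summed levels of 1259, 1155 and 446 FPKM. From E10.5 to Adult 2 of these 6 were higher (Myh11 and Rgs5) and 3 lower (Acta2, Tagln and Cspg4) by 1 or more. Endothelial markers had medians of 47.3, 34.6 and 36.1 FPKM, and macrophage markers had 1.05, 5.12 and 22.2 FPKM. Of the 8 endothelial markers, 3 were lower and 0 higher by 1 or more from E10.5 to E13.5. From E13.5 to Adult 2 of them were higher and 1 lower, which was Npr3, at 86.1, 50.4 and 1.82 FPKM in order of stage. In whole ventricle, fewer cells of a type and less RNA per cell cannot be told apart, and the part these markers have in the differences of the Wnt, Fzd, Sfrp and Dkk genes was not tested.

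The rest of the pathway was read from a list of 78 genes by role, of which 77 were found and 64 reached 1 FPKM. From E10.5 to E13.5, 6 were higher and 8 lower by 1 or more, beside backgrounds of 5.89% and 4.85%, with a median difference of 0.01. From E13.5 to Adult 1 was higher and 33 were lower, beside 13.0% and 32.1%, with a median of -1.06. From E10.5 to Adult 2 were higher and 33 lower, beside 14.8% and 27.3%, with a median of -1.08. With median-of-ratios scaling the first split became 4 and 8 (backgrounds of 4.18% and 6.28%), the second 5 and 22 (20.9% and 18.9%) and the third 4 and 20 (20.2% and 18.4%). With mRNA-sum scaling the first became 4 and 9 (3.36% and 8.64%) and the second 3 and 26 (17.2% and 23.6%), while the third stayed at 2 and 33 (15.2% and 27.3%). The counts by role that follow read against the same backgrounds of the deposited values, and lists of about 10 genes carry little precision.

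Among co-receptors and alternative receptors, 6 of the 10 that passed had an Adult level lower by 1 or more than the E10.5 level and 1 had a higher one, beside 27.3% and 14.8% of all mRNA loci. Ptk7, a planar polarity receptor, was at 28.9, 28.1 and 0.684 FPKM. Ror2, a receptor for Wnt5a, was at 13.7, 7.64 and 0.236 FPKM. Gpr124, the endothelial co-receptor for Wnt7 ligands, was at 31.6, 19.4 and 1.67 FPKM. Lgr6, a receptor for R-spondins, ran the other way, with 0.0860, 0.405 and 6.48 FPKM.

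Genes for making and releasing ligands stayed detectable in the Adult. Wls, which carries Wnt proteins to the cell surface, was at 80.1, 83.7 and 29.0 FPKM. Porcn, the enzyme that attaches the lipid, was at 1.60, 1.59 and 1.55 FPKM and so was level in these libraries.

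Secreted modulators outside the name rule included several with their highest value at E13.5. Frzb, the Sfrp-related antagonist also called Sfrp3, was at 2.14, 9.53 and 2.003 FPKM. Rspo3, an R-spondin that enhances Wnt signalling, was at 2.72, 10.6 and 0.288 FPKM. Apcdd1, a membrane-bound inhibitor, was at 3.26, 11.99 and 0.940 FPKM. Rspo1 was at 1.57, 3.31 and 0.159 FPKM. Of the 7 modulators that passed, the first 3 named were higher by 1 or more at E13.5 than before, and 6 were lower after it. Sost, an Lrp antagonist, was at 1.72 and 2.08 FPKM in the embryonic libraries and was listed at 0 in the Adult.

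Inside the cell, 13 of the 21 relay and destruction complex genes that passed had lower Adult than E13.5 levels by 1 or more, beside 32.1% of all mRNA loci. Dvl2, a Dishevelled protein that relays the signal from Frizzled, was at 11.0, 12.7 and 1.47 FPKM. Dact3, which binds Dishevelled, was at 14.6, 30.7 and 2.01 FPKM. Dact1, of the same family, was at 7.97, 15.1 and 1.62 FPKM. Both Dact genes were highest at E13.5, as was Nkd1, an inhibitor that also binds Dishevelled, with 2.16, 4.39 and 0.219 FPKM. Znrf3, a membrane ubiquitin ligase that removes Frizzled, was at 2.46, 1.72 and 1.12 FPKM.

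Among the 12 nuclear genes 7 had lower Adult than E10.5 levels by 1 or more, beside 27.3%. Lef1 was at 3.80, 3.02 and 0.0208 FPKM. Pygo2, a co-factor of beta-catenin, was at 11.98, 14.8 and 3.05 FPKM, while its relative Pygo1 was at 1.82, 4.42 and 7.38 FPKM, the one nuclear gene higher in the Adult by 1 or more. Tcf7 was at 2.58, 0.653 and 0.346 FPKM.

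Of the 9 planar polarity genes that passed, 4 had lower Adult than E10.5 levels by 1 or more and 0 had higher ones, beside 27.3% and 14.8%. Vangl2 was at 5.66, 5.56 and 0.334 FPKM, and its relative Vangl1 at 11.9, 8.64 and 3.12 FPKM. Celsr1, a cadherin of the same route, was at 5.03, 1.30 and 0.632 FPKM, and was the planar polarity gene that was already lower at E13.5. Scrib was at 7.19, 8.55 and 2.33 FPKM. Of the 9 commonly used target genes that passed, 5 were lower by 1 or more from E13.5 to Adult and 5 from E10.5 to Adult, beside 32.1% and 27.3%, with medians of -1.51 and -1.14. All of these 9 but Ccnd1 and Myc also stand in another role list, so these counts overlap those of the other roles and are not a separate readout. Ccnd1, a cyclin of cell cycle entry, was at 49.0, 63.5 and 17.7 FPKM. Axin2, a widely used target of beta-catenin signalling, was at 1.48, 2.45 and 1.09 FPKM, within 1 of each other on the log2 scale.

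**Figure D4:**
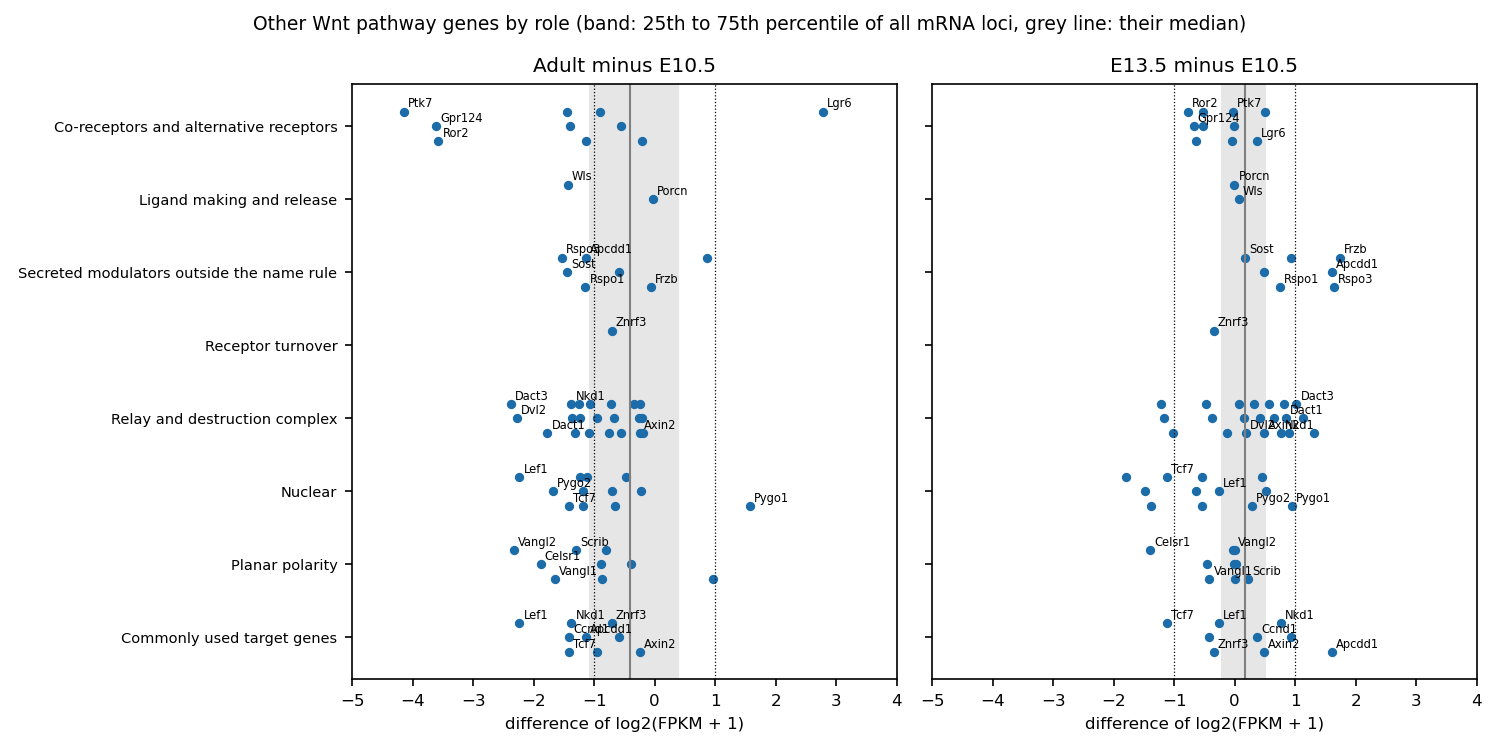
Differences in log2(FPKM + 1) of the other pathway genes that reached 1 FPKM, by role, from E10.5 to Adult (left) and from E10.5 to E13.5 (right), with a grey band from the 25th to the 75th percentile of all mRNA loci and dotted lines at 1 and -1. Points lie mainly left of the grey median in the left panel, where Lgr6 at 2.78 and Pygo1 at 1.57 are the exceptions past 1. Target genes that also have another role are drawn in both rows.

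Gene neighbours were examined because the study concerned transcripts that start close to another gene. Of the 37 members 7 (18.9%) had a locus on the opposite strand that overlapped them or started within 3000 bases, against 34.4% of mRNA loci. Starts lay within 3000 bases for 4 members (10.8%), against 22.0%. Fzd4 and Tmem135, a gene of the opposite strand, started 186 bases apart, so that the Tmem135 start lies inside the Fzd4 promoter printed above. Tmem135 was at 25.9, 16.0 and 23.2 FPKM, lowest at E13.5 as Fzd4 was. Fzd10 and the locus 5930412G12Rik started 419 bases apart, and that locus was at 0.115, 0.372 and 0.0224 FPKM, with its highest value at E13.5 as for Fzd10. AU022754 started 679 bases from Wnt7b and was at 0.0173 FPKM, listed at 0 and at 0.0121 FPKM, while Wnt7b was at 0.0938, 0.0965 and 0.0272 FPKM. An unnamed locus 1204 bases from the Fzd2 start was at 0.548, 0.586 and 0.304 FPKM, a far narrower range than that of Fzd2.

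Some Wnt genes lie side by side and yet differed in level. Wnt9a lies 16.2 kb from Wnt3a, which was never above 0.0564 FPKM. Wnt9b lies 24.4 kb from Wnt3, which was never above 0.0453 FPKM. The pairs Wnt6 with Wnt10a (6.70 kb) and Wnt10b with Wnt1 (11.7 kb) were under the 1 FPKM limit in all 3 libraries.

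The 3 remaining loci of the name rule ran opposite to their gene. At Wnt2b (chromosome 3, 104939504 to 104961709, - strand) a locus joined to St7l covered 4381 bases inside the gene, 1777 of them over its exons, and was at 6.69, 5.52 and 7.15 FPKM. A single-exon locus, 2975 bases long, lay wholly over exonic sequence of the longer of 2 Wnt2b models. It was at 0.853, 0.163 and 1.06 FPKM. The models were 8874 and 3573 bases long, and the shorter ended 16904 bases from the Wnt2b start. Counted from that start the locus spanned bases 16354 to 19328, so only part of it lay over the shorter model. An unnamed locus beside the single-exon one had 2769 bases inside Wnt2b, all of them over exonic sequence of the longer model. It was at 2.12, 0.439 and 2.18 FPKM. The single-exon locus and the unnamed one were lowest at E13.5, unlike Wnt2b itself, whose value was lowest in the Adult. The locus joined to St7l was lowest at E13.5 too, with a difference of -0.24 from E10.5. Its value covers all 8 transcripts of that locus, 1 of them the transcript named as opposite to Wnt2b. The level of that transcript alone is therefore not known. The libraries kept strand, but whether reads were assigned by strand in the counting is not given in the sources used here, so that the levels of Wnt2b and of loci over its exons are uncertain.

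**Figure D5:**
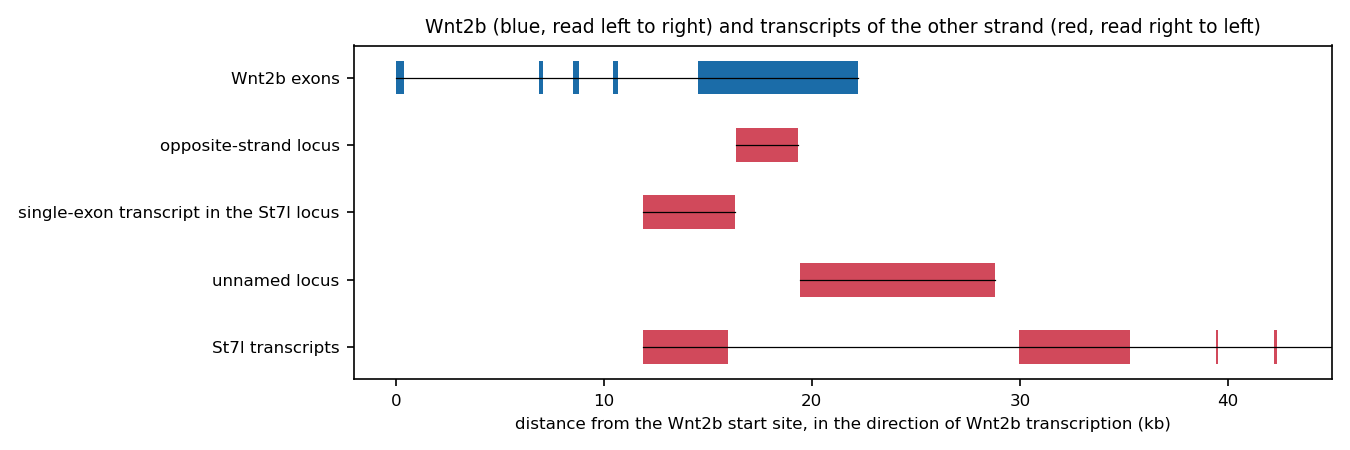
Exons of Wnt2b (blue) and of the transcripts on its opposite strand (red), drawn to scale as distance in kb from the Wnt2b start in the direction of Wnt2b transcription; the St7l locus runs on past the right edge. The opposite-strand locus of 2975 bases lies wholly within the long last exon assembled for Wnt2b.

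The opposite-strand locus at Wnt16 (chromosome 6, 22290337 to 22291639, - strand) was at 0.851 and 0.0346 FPKM at E10.5 and E13.5 and was listed at 0 in the Adult. It was 1303 bases long, with 287 of them over a Wnt16 exon, and its embryonic values correspond to about 15.3 and 1.20 fragments. Its highest value was at E10.5, whereas Wnt16 was highest at E13.5, and with 1 library per stage and so few fragments the difference between them was not tested. The assembly also extended single-exon transcripts of Fzd1 to 6344 bases, against 4378 in the matching transcript, and of Fzd8 to 7162 bases against 3346, and a longer model changes the length by which FPKM divides.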

How the data were processed

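Stranded total RNA libraries of mouse heart ventricle, 1 each for E10.5, E13.5 and Adult, were analysed. The authors aligned reads with TopHat (TopHat2 in the study's methods) and Bowtie to mm10, and assembled transcripts with Cufflinks, run both with UCSC annotations and without them. Other versions and options, strand settings among them, are not given in the sources used here. The deposited values were FPKM per locus, used as deposited. Depth was approximated from the smallest steps of low FPKM values (0.0725, 0.0375 and 0.0725 FPKM kb), since no counts were analysed here.

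Members were taken from locus names, and the 37 loci on the strand of their gene were used after the annotation had been seen. Of the introns of the members, 115 of 115 were in the GENCODE annotation of the same build. Levels of 1 FPKM or more in at least 1 library were required, and differences were taken as log2(FPKM + 1), with 1 or more counted as higher or lower. mRNA loci that passed the same limit gave the background. No test was run because each stage had 1 library. Members that passed were all named. Of each pathway list up to 4 genes with the largest difference in size between Adult and E10.5 were named, and also Axin2, Lef1 and Frzb. The members and lists were chosen with earlier results of these data known. Of 78 pathway genes, Prickle4 was not found. Motifs were searched in RefSeq promoters. Members on chromosome 18 were left out of that search, and some other members had no window among those promoters. Alternatives were 2 scalings, pseudocounts of 0.1 and 5, limits of 0.5 and 2 FPKM, a difference of 2, and windows of 1000 and 10000 bases. An antagonist sum without Dkk3 and the stage of highest level under both scalings were added after the data were seen. Scaling factors for E10.5, E13.5 and Adult were 1.07, 1.19 and 0.804 by median of ratios over 14534 loci above 0 in all libraries. They were 0.934, 1.16 and 0.923 by the mRNA sum without 9 globin and mitochondrial loci. Python 3.11.15, numpy 2.4.6, pandas 2.3.3 and matplotlib 3.10.9 were used. The rule of a difference of 1 or more was tried on simulated data in separate code, not in the code that gave the counts.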

Additional observations from a re-analysis of the deposited data

How the results depend on the processing

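No paired analysis was possible because there was 1 library per stage, and for the same reason no library could be left out and no spread between replicates is known. No difference of 1 or more of a member that passed or of a named pathway gene changed direction under either scaling or pseudocount. With median-of-ratios scaling 2 members were higher from E13.5 to Adult, and of the pathway genes 5 were higher; from E10.5 to Adult 4 pathway genes were higher and 20 lower. With mRNA-sum scaling 3 members were lower between the embryonic libraries, and from E13.5 to Adult 2 members and 3 pathway genes were higher. For the settings that follow, shares over all mRNA loci are not given here, so these counts cannot be set beside a background. A pseudocount of 0.1 made 1 member and 2 pathway genes higher from E13.5 to Adult, and 10 pathway genes higher between the embryonic libraries. A pseudocount of 5 gave 3 members higher between the embryonic libraries, 8 lower from E13.5 to Adult and 6 from E10.5 to Adult. For the pathway genes that pseudocount gave 3 higher and 1 lower, 16 lower, and 1 higher and 13 lower in the same order of comparisons. Requiring a difference of 2 left 1 member higher, 6 lower, and 5 lower with 0 higher, and for the pathway genes 0 higher and 0 lower, 11 lower, and 1 higher and 7 lower. With a limit of 2 FPKM, 6 members were expressed in the Adult. Neighbours on the opposite strand were found for 11 members within 10000 bases, and for 3 when the neighbour had to reach 1 FPKM. Including all 40 loci of the name rule, an alternative chosen after seeing the data, moved none of the counts of members by over 1.5 times. Depth limits values well below 1 FPKM, which rest on a few fragments.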
